A study of Mus musculus with 8 samples.

Results

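The vacuolar proton pump (V-ATPase) is described here through 10 of its subunit genes, measured in ribosome-associated mRNA of the mouse ventral tegmental area (VTA), a midbrain region with many dopamine neurons. They are Atp6v1a, Atp6v1b2, Atp6v1c1, Atp6v1d, Atp6v1e1, Atp6v1g1, Atp6v1g2 and Atp6v1h of the cytosolic V1 sector and Atp6v0a1 and Atp6v0c of the membrane V0 sector. Their rows were found by gene symbol among the 56691 rows of the deposited count table, and all 10 were found. The set was chosen with the contrast between the genotypes already known, and it places the neuronal version of subunit G, Atp6v1g2, beside subunits that most cells use. Values of the 10 genes in that contrast are therefore given as a description. Where they are counted against a threshold, the share of all genes stands beside the count, and since the genes were chosen on this contrast nothing is read from it.

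Male mice of the genotype Ogt flox+/Y (Ogt knockdown, n = 4 libraries, replicates 2, 3, 4 and 5) were compared with Ogt flox-/Y mice (control, n = 4 libraries, replicates 3, 4, 5 and 6). Into the VTA of both genotypes went a pair of viruses. AAV-TH-Cre drives Cre recombinase from the tyrosine hydroxylase promoter, and AAV-Flex-NBL10 needs Cre to make the HA-tagged NBL10, through which ribosomes and their messages were enriched. The study asked which signalling changes follow in VTA dopamine neurons when Ogt, the enzyme that attaches O-GlcNAc to proteins, is knocked down. Cre, and with it the tag, is made in cells that took up the viruses and use that promoter. The mice's ages and the number of mice per library are not given in the sources used here. The labels do not tie a replicate to an animal. All p-values therefore measure the spread among these libraries, and that spread may be technical.

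V-ATPase pumps protons into lysosomes, endosomes and synaptic vesicles at the cost of ATP. Its V1 sector hydrolyses ATP on alternating A and B subunits and turns a central stalk, while peripheral stalks built of E and G with C, H and subunit a hold the machine still. The V0 sector carries the protons across the membrane on a ring of c subunits that slides past subunit a. In nerve terminals the proton gradient is what vesicular transporters use to load dopamine, glutamate and GABA, and several subunits have versions that neurons prefer.

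Library depth ranged from 49802305 to 147747191 counted reads. Values are CPM (counts relative to library size) after TMM scaling, and fold changes are log2 of Ogt knockdown over control. Their standard error (SE) was derived from the edgeR fit. It is the absolute log2 fold change divided by the square root of the F statistic of the quasi-likelihood test. The Ogt message had 74.4, 47.2, 41.7 and 36.0 CPM in Ogt knockdown replicates 2 to 5, against 159, 118, 118 and 108 CPM in control replicates 3 to 6. Under TMM scaling all Ogt knockdown libraries lay below all control libraries (log2 fold change -1.34, SE 0.23, edgeR quasi-likelihood adjusted p = 0.00243). Markers of dopamine neurons were present in all libraries, and so were markers of glia. Of 12 dopamine neuron markers, 11 fell and Aldh1a1 rose (edgeR quasi-likelihood test, adjusted p under 0.05, TMM scaling). Of all genes tested, 15.1% fell and 13.4% rose in that fit. The summed level of the 12 markers was 1804 to 2420 CPM in Ogt knockdown libraries and 2162 to 3923 CPM in control libraries. Control replicate 3 stood apart, with 949 CPM of 10 endothelial markers against 29.5 to 34.3 CPM in the other control libraries, and with 1510 CPM of 10 astrocyte markers against 3859 to 5719. Ogt knockdown replicate 3 also differed from its group in several pump subunits, as shown gene by gene. Results that rest on the libraries numbered 3, other than ratios between genes, are given with and without them. This step was chosen after seeing the data.

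Messages of 6 of the 10 subunits were lower in every Ogt knockdown library than in every control library, and none of the 10 was higher in every one. Across all 19912 genes tested, 18.0% lay entirely below control in this way. Past the threshold of 0.05 for the adjusted p of edgeR's quasi-likelihood test, 5 of the 10 subunits were lower and 0 were higher, where 15.1% of all genes tested were lower. Without Ogt knockdown replicate 3 the number past the threshold was 8, where 16.1% of all genes were lower. It was 3 without Ogt knockdown replicate 4, control replicate 5 or control replicate 6, where 10.4% to 11.8% of all genes were lower. The median log2 fold change of the 10 was -0.48, beside 0.00 for all genes tested, and the values ran from -2.08 for Atp6v1g2 to -0.02 for Atp6v1h (0.08 with upper quartile scaling). Without the libraries numbered 3, 9 of the 10 were past the threshold, all lower, with a median of -0.65, and 23.3% of all genes were lower in that fit. Each library pools enriched messages of many cells, so fewer cells of a type, less RNA per cell and a difference in enrichment cannot be told apart.

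**Figure D1:**
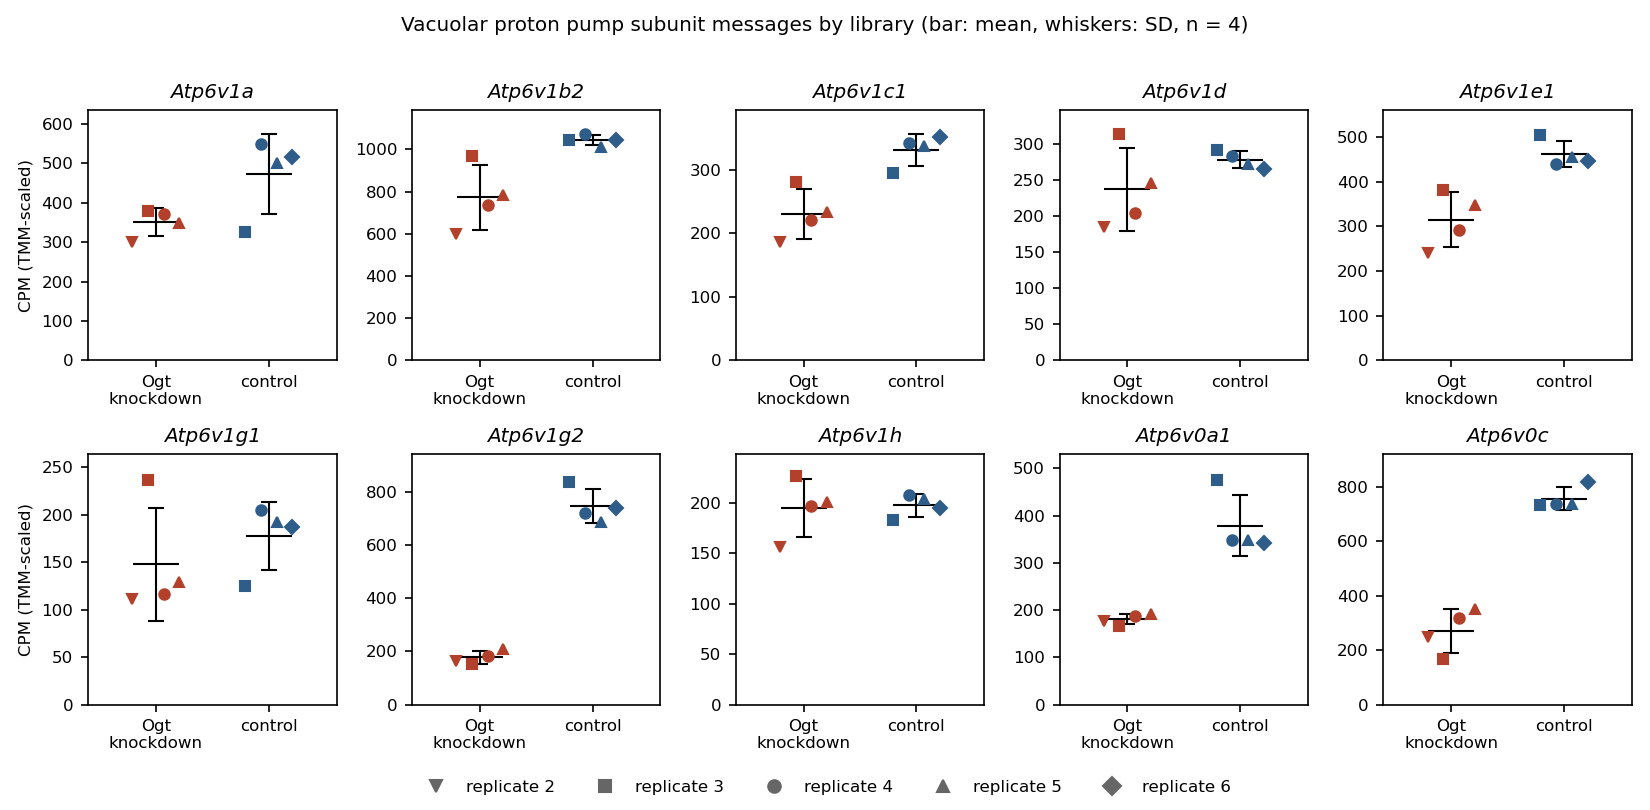
Level of each of the 10 subunit messages in CPM (TMM-scaled, linear axis from 0) in the 4 Ogt knockdown libraries (left, red) and the 4 control libraries (right, blue), with the mean as a bar, the SD as whiskers and the replicate number as the symbol. Atp6v1g2, Atp6v0a1 and Atp6v0c show a wide gap between the groups, Atp6v1h shows none, and Ogt knockdown replicate 3 is the highest of its group for 7 subunits.

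Subunit G, part of the peripheral stalks, has a version found mainly in neurons and another that most cells make. The neuronal Atp6v1g2 (chromosome 17, 35452636 to 35457743, GRCm39) had 163, 152.5, 183 and 208.5 CPM in Ogt knockdown replicates 2 to 5. Control replicates 3 to 6 held 837, 722, 688 and 740.1 CPM. The highest Ogt knockdown library thus lay far under the lowest control library, and the log2 fold change was -2.08 (SE 0.14), the lowest of the 10. The widely made Atp6v1g1 (chromosome 4, 63463009 to 63468987) had 111, 237, 116 and 129 CPM in Ogt knockdown replicates 2 to 5, against 125, 205, 192 and 188 CPM in control replicates 3 to 6. Its groups overlapped through the libraries numbered 3, of which the Ogt knockdown one was the highest of all 8 and the control one was the lowest of its group. The log2 fold change of Atp6v1g1 was -0.26 (SE 0.26), and -0.72 without those libraries, where that of Atp6v1g2 was -1.96. The count of Atp6v1g1 is uncertain where its reads also align to near-identical copies. Gm13453 matched 357 bases of it at 99.4% identity and Gm12344 matched 287 bases. Exons of Atp6v1g2 shared 5.74% of their bases with Nfkbil1 on the opposite strand, which counting without strand cannot separate.

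Per length of exon, Atp6v1g2 made up 40.0%, 22.6%, 41.6% and 42.3% of the subunit G messages in Ogt knockdown replicates 2 to 5. In control replicates 3 to 6 the share was 75.2%, 61.4%, 61.8% and 64.1%. By this measure the neuronal version was the larger part of subunit G in each control library and the smaller part in each Ogt knockdown library. The lengths are those of all annotated exons, so the shares of the versions of G, a and e depend in part on the annotation. Each gene's length is the same in every library. On the log2 scale the ratio of Atp6v1g2 to Atp6v1g1 averaged -0.83 ± 0.64 in Ogt knockdown libraries and 0.95 ± 0.44 in control libraries (SD, n = 4 each), a difference of -1.78. A ratio of 2 genes does not depend on how the libraries are scaled. The third version, Atp6v1g3, held 0 reads in all Ogt knockdown libraries and 0, 0, 0 and 1 reads in control libraries.

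Atp6v0a1 encodes the version of subunit a that neurons use most, which anchors the peripheral stalks and forms the path by which protons cross. Its message (chromosome 11, 100900278 to 100954545) had 177, 167, 188 and 192 CPM in Ogt knockdown replicates 2 to 5. In control replicates 3 to 6 it had 475, 348, 349 and 342 CPM. Control replicate 3 was the highest library, the groups did not overlap, and the log2 fold change was -1.06 (SE 0.14), or -0.90 without the libraries numbered 3. Atp6v0c encodes the c subunit of the proton-carrying ring. Its message (chromosome 17, 24382840 to 24388676) had 249, 167, 317 and 350.0 CPM in Ogt knockdown replicates 2 to 5. Control replicates 3 to 6 held 732, 736, 738 and 817 CPM, all more than the highest Ogt knockdown library. The log2 fold change of Atp6v0c was -1.48 (SE 0.21), and -1.33 without the libraries numbered 3. Its reads are uncertain, because the pseudogenes Atp6v0c-ps2 and Atp6v0c-ps1 matched 465 of its bases at 99.8% and 97.2% identity.

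In the catalytic head of V1, subunit A binds and splits ATP and subunit B completes the nucleotide sites. Atp6v1a (chromosome 16, 43905765 to 43960068) had 301, 379.8, 372 and 350.0 CPM in Ogt knockdown replicates 2 to 5, against 325, 550.3, 502 and 517 CPM in control replicates 3 to 6. Its groups overlapped only through control replicate 3, and the log2 fold change was -0.43 (SE 0.17), or -0.62 without the libraries numbered 3. Atp6v1b2 (chromosome 8, 69541298 to 69566363), the B version that brain uses, was the most abundant of the 10 by CPM. It had 599.7, 968, 737 and 784 CPM in Ogt knockdown replicates 2 to 5, against 1047, 1074, 1013 and 1046 CPM in control replicates 3 to 6. The groups did not overlap, and Ogt knockdown replicate 3 came closest to control. Its log2 fold change was -0.44 (SE 0.16). The kidney and inner ear version Atp6v1b1 held 0, 0, 0 and 8 reads in Ogt knockdown libraries and 0 reads in each control library.

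The stalk subunits of V1 gave smaller differences than Atp6v1g2. Atp6v1e1 (chromosome 6, 120771266 to 120799754), partner of subunit G in the peripheral stalks, had 241, 380.5, 292 and 347 CPM in Ogt knockdown replicates 2 to 5. Control replicates 3 to 6 had 505, 440.5, 456 and 446 CPM, and the log2 fold change was -0.55 (SE 0.16). Each Ogt knockdown library lay below each control library. Atp6v1c1 (chromosome 15, 38662177 to 38692690), the subunit that joins the stalks to V0 and leaves when the pump comes apart, had 187, 281, 221 and 233 CPM in Ogt knockdown replicates 2 to 5. In control replicates 3 to 6 it had 295, 341, 337 and 351 CPM, and the log2 fold change was -0.52 (SE 0.14). These groups did not overlap either, with Ogt knockdown replicate 3 and control replicate 3 nearest to each other.

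Atp6v1d (chromosome 12, 78887499 to 78908412), the axle of the turning stalk, had 184, 314, 204 and 245 CPM in Ogt knockdown replicates 2 to 5, against 291, 282.5, 272 and 265 CPM in control replicates 3 to 6. Ogt knockdown replicate 3 was the highest of all 8 libraries, so the groups overlapped. The log2 fold change of Atp6v1d was -0.23 (SE 0.17), or -0.37 without the libraries numbered 3. Atp6v1h (chromosome 1, 5140241 to 5232752), which stops ATP hydrolysis when V1 is free of V0, had 156, 226, 198 and 201 CPM in Ogt knockdown replicates 2 to 5. In control replicates 3 to 6 it had 183, 208, 204 and 195 CPM. The groups of Atp6v1h overlapped, and its log2 fold change was -0.02 (SE 0.13). Small parts of the exons of Atp6v1e1 (0.779%, with Slc25a18) and Atp6v1h (1.3%, with Rgs20) overlap genes on the opposite strand.

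The 10 subunits did not vary together within the Ogt knockdown group. Ogt knockdown replicate 3 was the highest of its group for 7 subunits (Atp6v1a, Atp6v1b2, Atp6v1c1, Atp6v1d, Atp6v1e1, Atp6v1g1 and Atp6v1h) and the lowest for the other 3. Those 3 were Atp6v1g2, Atp6v0a1 and Atp6v0c, which also had the lowest log2 fold changes of the 10. Ogt knockdown replicate 2 was the lowest of its group for the same 7 subunits, and Ogt knockdown replicate 5 was the highest for the same 3. Deviations of Ogt knockdown replicate 3 from its group mean reached 0.75 on the log2 scale for Atp6v1g1 and -0.64 for Atp6v0c. This split of the subunits was seen in these values and was not tested.

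Levels of the 10 genes were put in order per kilobase of exon. This length covers all annotated exons of a gene and can exceed that of its messages. For Atp6v0c it was 3384 bases, where its longest coding transcript in GENCODE M21 had 1183. The order between genes therefore depends in part on the annotation. The control order was Atp6v1g2 (297 ± 25.4 CPM per kilobase), Atp6v0c (223 ± 12.2), Atp6v1b2 (197 ± 4.72), Atp6v1g1 (156 ± 31.6), Atp6v1e1 (112 ± 7.14) and Atp6v1a (78.3 ± 16.7), followed by Atp6v1d (60.4 ± 2.48), Atp6v1c1 (59.1 ± 4.41), Atp6v0a1 (57.7 ± 9.84) and Atp6v1h (20.3 ± 1.14; SD, n = 4 each). In the Ogt knockdown order, Atp6v1b2 came first (146 ± 28.7), then Atp6v1g1 (130 ± 52.5), Atp6v0c (80.0 ± 23.9), Atp6v1e1 (76.7 ± 15.0) and Atp6v1g2 (70.4 ± 9.8). Atp6v1g2 thus held rank 5 in Ogt knockdown libraries and rank 1 in control libraries. In Ogt knockdown libraries each of these 5 differed from its neighbour by less than the larger of their SDs, and so did Atp6v1a (58.0 ± 5.89), Atp6v1d (51.5 ± 12.4) and Atp6v1c1 (41.1 ± 6.93). Only Atp6v1d, Atp6v1c1 and Atp6v0a1 did so in control libraries.

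Scaling decides the sign of most of these changes. When libraries were scaled on the summed counts of 12 pan-neuronal markers in place of TMM, the median log2 fold change of all genes moved to 1.20, and 8 of the 10 subunits had values above 0. On that scale Atp6v1g2 stayed below 0 at -0.89 and Atp6v0c at -0.30, Atp6v0a1 was at 0.13, and the other 7 lay between 0.65 for Atp6v1e1 and 1.19 for Atp6v1h. Relative to the median of all genes, the values were -2.09 for Atp6v1g2, -1.50 for Atp6v0c, -1.07 for Atp6v0a1 and -0.55 to -0.01 for the other 7. A change of scaling moves all genes by nearly the same amount. These values therefore return those under TMM scaling and are no separate result. The pan-neuronal markers themselves summed to 3926 to 4558 CPM in Ogt knockdown libraries and 9343 to 10027 CPM in control libraries. Under TMM scaling 10 of the 12 fell and 2 did not pass, where 15.1% of all genes fell. With DESeq2 10 fell and 1 rose, where 17.0% of all genes fell and 17.5% rose. The markers were thus not uniform. Under TMM scaling their log2 fold changes ran from -2.3 to 0.8, with a median of -1.18, beside -1.34 for Ogt. The value of Ogt under pan-neuronal scaling is not given. Since that scaling moves all genes up by nearly the same amount, the fall of Ogt is much smaller on that scale.

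**Figure D2:**
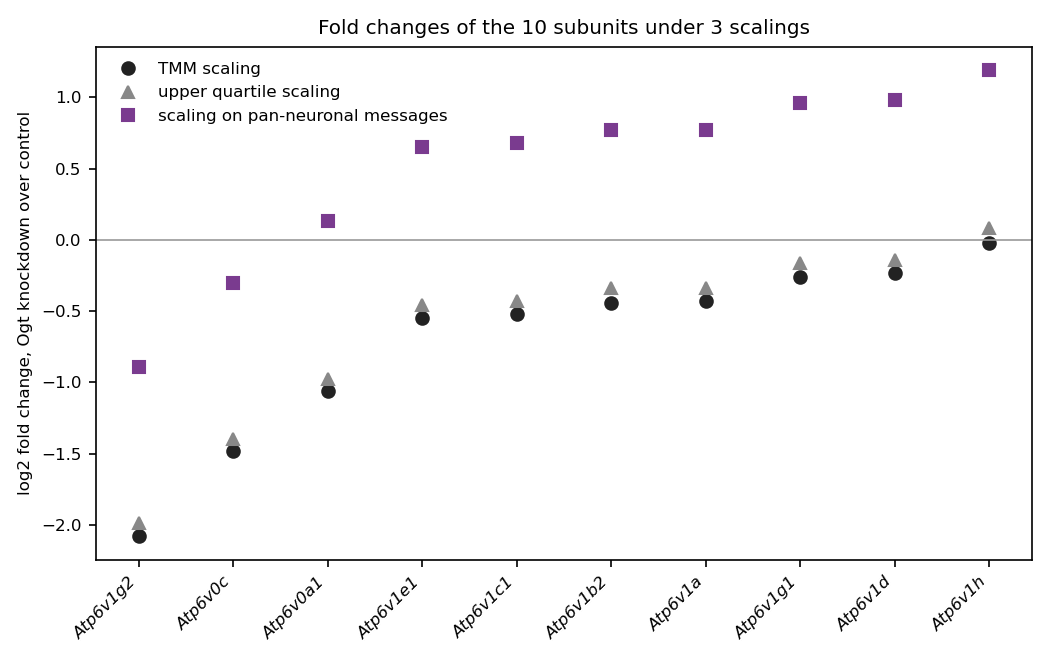
log2 fold change, Ogt knockdown over control, of each of the 10 subunits under 3 scalings of the libraries: TMM (circles), upper quartile (triangles) and the summed pan-neuronal markers (squares). Under pan-neuronal scaling 8 of the 10 values lie above 0 and only those of Atp6v1g2 and Atp6v0c lie below 0. The order of the subunits is almost the same as under TMM, because a change of scaling moves all genes by nearly the same amount.

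Levels of other cell types moved with the genotype as well. Among 10 astrocyte markers, 3 rose (Gfap, Sox9 and Slc1a2) and 0 fell. With all libraries 13.4% of all genes rose, the share that stands beside each glial count. With 1 library left out, 1 to 7 astrocyte markers rose. The number was 1 without Ogt knockdown replicate 2, 4 or 5 or control replicate 4 or 6, where 8.12% to 9.26% of all genes rose. It was 7 without control replicate 3 (18.1% of all genes) and 9 without both libraries numbered 3 (23.5%). The astrocyte markers summed to 9934 to 13926 CPM in Ogt knockdown libraries and 1510 to 5719 CPM in control libraries. Of 10 oligodendrocyte markers 5 rose and 0 fell, with sums of 1955 to 4453 CPM in Ogt knockdown libraries and 1264 to 1877 CPM in control libraries. Only 1 of them rose without Ogt knockdown replicate 2, control replicate 4 or control replicate 6 (8.12% to 8.87% of all genes). Without Ogt knockdown replicate 4 or control replicate 5, 3 rose (9.26% and 9.87% of all genes). Of 10 microglia markers 8 rose and 0 fell, with sums of 54.3 to 151 CPM in Ogt knockdown libraries and 28.6 to 48.5 CPM in control libraries. None of the 10 endothelial markers passed with all libraries, and 5 of them rose without control replicate 3, where 18.1% of all genes rose. Under pan-neuronal scaling, where 71.9% of all genes were higher, all 10 markers of each glial list were higher, and of the dopamine neuron markers 4 were lower and 1 was higher. No marker of these lists was at 0 in any library. The part of these marker levels in the values of the pump subunits was not tested.

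**Figure D3:**
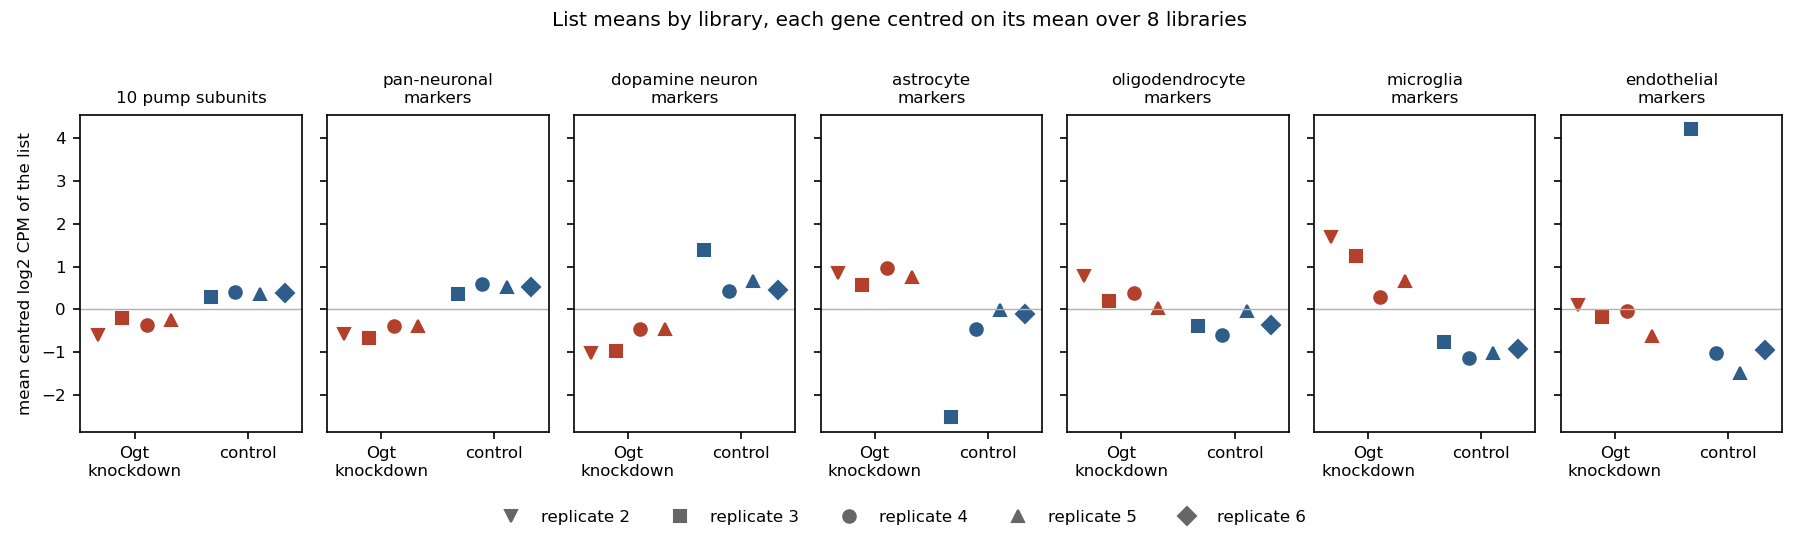
Mean log2 CPM of the 10 pump subunits and of 6 marker lists in each library, each gene centred on its mean over the 8 libraries, with Ogt knockdown libraries left (red) and control libraries right (blue). Pump subunits and neuronal markers are lower in Ogt knockdown libraries, astrocyte and microglia markers are higher there, and control replicate 3 stands apart in the endothelial (4.21), astrocyte (-2.53) and dopamine neuron (1.39) lists.

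The rule did not name the other subunits and accessory proteins of the pump, and these were tested. Their list was drawn up with earlier results of these data known, which limits what their p-values can show. Of 15 such genes, 11 had enough reads, of which Atp6v0a2 and Atp6v0e rose, Atp6ap1 fell and 8 did not pass; 28.5% of all genes tested passed in either direction. Their median log2 fold change was 0.00. Only Atp6v0a2 also passed when the replicate number was used as a block, and without Ogt knockdown replicate 3 the number that passed was 6. Under pan-neuronal scaling 10 of the 11 passed, all higher, where 72.7% of all genes passed, so that Atp6ap1 changed its sign (0.56).

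Atp6v0a2 encodes a version of subunit a that is found in the Golgi and endosomes. It had 113, 79.5, 102 and 107 CPM in Ogt knockdown replicates 2 to 5, against 36.9, 49.1, 60.4 and 59.8 CPM in control replicates 3 to 6. All Ogt knockdown libraries lay above all control libraries, and the log2 fold change was 0.96 (SE 0.18, edgeR adjusted p = 0.00382). A share of 9.86% of its exon bases overlaps 4930404A12Rik on the opposite strand, and the counts are uncertain to that extent. Among the subunit a messages, per exon length, Atp6v0a2 made up 31.9% ± 2.57 in Ogt knockdown libraries and 11.5% ± 3.6 in control libraries (SD, n = 4 each). The share of Atp6v0a1 was 59.4% ± 2.61 in Ogt knockdown libraries and 83.2% ± 1.06 in control libraries. The log2 ratio of Atp6v0a1 to Atp6v0a2 averaged 0.90 ± 0.18 in Ogt knockdown libraries and 2.93 ± 0.55 in control libraries, a difference of -2.03.

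Tcirg1, the version of subunit a known from bone-resorbing osteoclasts and also made by immune cells, had 21.3, 18.4, 17.3 and 15.5 CPM in Ogt knockdown replicates 2 to 5. In control replicates 3 to 6 it had 40.0, 11.1, 10.8 and 10.6 CPM, so control replicate 3 stood far above its group. With all libraries the log2 fold change was 0.00 (SE 0.43, edgeR adjusted p = 0.999), and without control replicate 3 it was 0.74 (edgeR adjusted p = 0.00344). The log2 ratio of Tcirg1 to Atp6v0a2 averaged -1.92 ± 0.29 in Ogt knockdown libraries and -1.21 ± 1.26 in control libraries. That difference of -0.71 did not pass the exact two-sided permutation test over the 70 assignments of the libraries (p = 0.371, n = 4 each), and it was -0.09 without control replicate 3. Atp6v0a4, the version of kidney and inner ear, averaged 0.443 ± 0.251 CPM in Ogt knockdown libraries and 0.302 ± 0.217 CPM in control libraries and did not pass (edgeR adjusted p = 0.617).

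Subunit e of V0, a small membrane protein, also has versions. Atp6v0e, the widely made one, had 60.6, 76.8, 59.6 and 65.1 CPM in Ogt knockdown replicates 2 to 5, against 13.1, 31.9, 37.6 and 34.7 CPM in control replicates 3 to 6. The groups did not overlap, and the log2 fold change was 1.16 (SE 0.28, edgeR adjusted p = 0.0125; 0.0912 with a replicate block). Atp6v0e2, the version rich in brain, averaged 629 ± 113 CPM in Ogt knockdown libraries and 756 ± 38.5 CPM in control libraries and did not pass (log2 fold change -0.26, SE 0.15, edgeR adjusted p = 0.213; 0.0473 without Ogt knockdown replicate 3). Per exon length Atp6v0e2 made up 93.7% ± 0.598 of subunit e in Ogt knockdown libraries and 97.6% ± 0.832 in control libraries. The log2 ratio of Atp6v0e2 to Atp6v0e averaged 3.89 ± 0.14 in Ogt knockdown libraries and 5.44 ± 0.64 in control libraries (SD, n = 4 each). This difference of -1.54 was seen in 4 of 4 Ogt knockdown libraries, and its exact two-sided permutation p of 0.0286 is the smallest that the design allows. Adjusted over the 2 ratios tested, p was 0.0571, which misses the threshold.

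**Figure D4:**
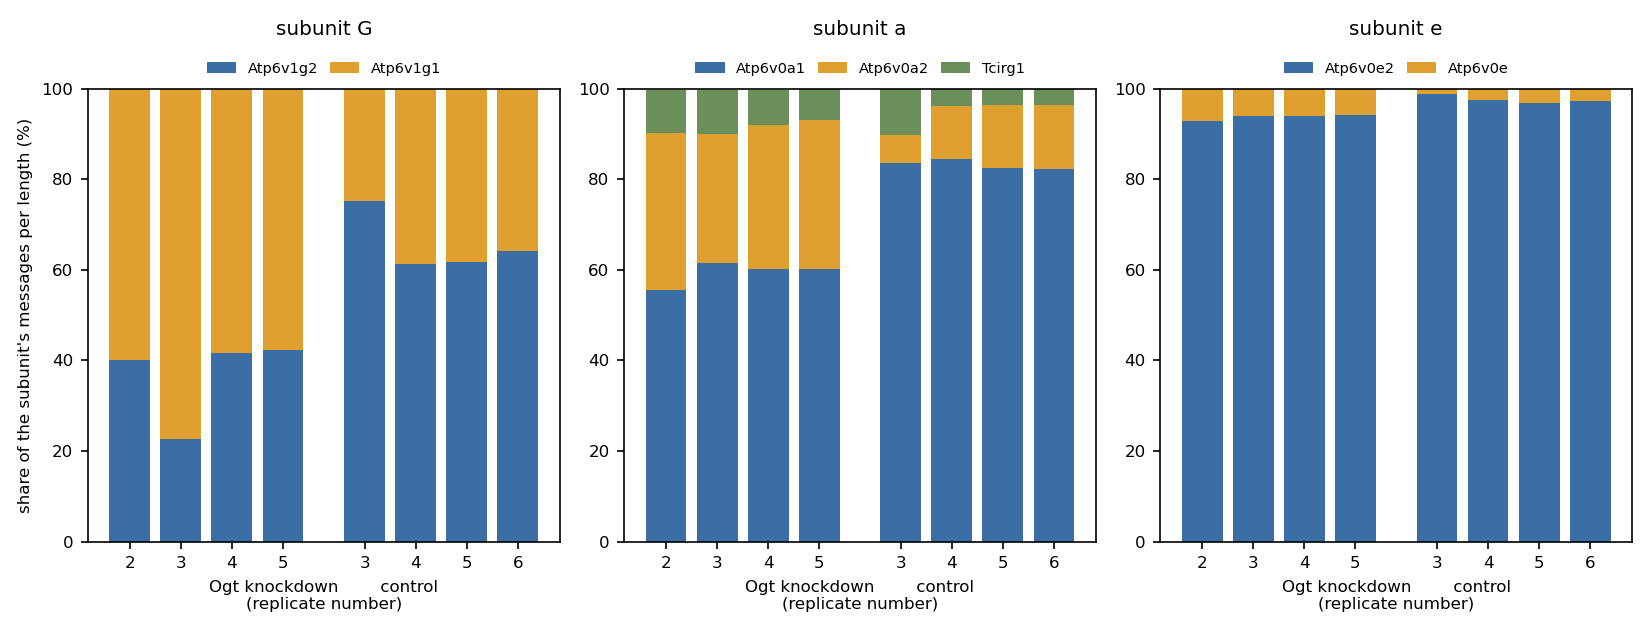
Share of the versions of subunits G, a and e, in percent of that subunit's messages per exon length, in each library (bars, replicate numbers below; Ogt knockdown left, control right; versions that stay under 0.5% in every library are not drawn). Atp6v1g2 takes 22.6% to 42.3% of subunit G in Ogt knockdown libraries and 61.4% to 75.2% in control libraries, and Atp6v0a1 takes 55.6% to 61.5% of subunit a in Ogt knockdown libraries and 82.3% to 84.5% in control libraries.

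The accessory protein Atp6ap1 (Ac45), which guides V0 assembly and acid-dependent secretion, had 228, 354, 272 and 276 CPM in Ogt knockdown replicates 2 to 5. Control replicates 3 to 6 had 509.9, 387, 419.8 and 445 CPM. All Ogt knockdown libraries lay below all control libraries (log2 fold change -0.64, SE 0.16, edgeR adjusted p = 0.0143; 0.0797 with a replicate block). Atp6ap2, the prorenin receptor, averaged 202 ± 68.4 CPM in Ogt knockdown libraries and 286.5 ± 29.1 CPM in control libraries. It did not pass (log2 fold change -0.50, SE 0.21, edgeR adjusted p = 0.101), but did without Ogt knockdown replicate 3 (-0.77, edgeR adjusted p = 0.00286). Part of its message is shared with the near-identical Gm36448, so its counts are uncertain.

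The remaining subunits that were tested did not pass. Atp6v0d1, which couples the turning stalk to the c ring, averaged 271 ± 32.9 CPM in Ogt knockdown libraries and 354 ± 36.6 CPM in control libraries (log2 fold change -0.39, SE 0.13, edgeR adjusted p = 0.0549). Its groups did not overlap, and it passed without Ogt knockdown replicate 5 (edgeR adjusted p = 0.0378). Atp6v1f, a subunit of the turning stalk, averaged 271.5 ± 63.5 CPM in Ogt knockdown libraries and 326.5 ± 29.8 CPM in control libraries (edgeR adjusted p = 0.266; 0.0202 without Ogt knockdown replicate 3). Atp6v0b, the c'' subunit of the ring, averaged 321 ± 124 CPM in Ogt knockdown libraries and 269 ± 63.8 CPM in control libraries (edgeR adjusted p = 0.493), and its log2 fold change of 0.25 was -0.05 without Ogt knockdown replicate 3. The exons of Atp6v0b share 11.8% of their bases with Gm12841 on the opposite strand. Atp6v1c2, a version of subunit C found in epithelia, averaged 2.43 ± 0.384 CPM in Ogt knockdown libraries and 2.19 ± 0.355 CPM in control libraries (edgeR adjusted p = 0.692). Reads were too few to test Atp6v1e2 (19, 0, 10 and 4 in Ogt knockdown replicates 2 to 5; 0, 0, 4 and 2 in control replicates 3 to 6) and Atp6v0d2 (14, 20, 8 and 0 in Ogt knockdown replicates 2 to 5; 0 in each control library).

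**Figure D5:**
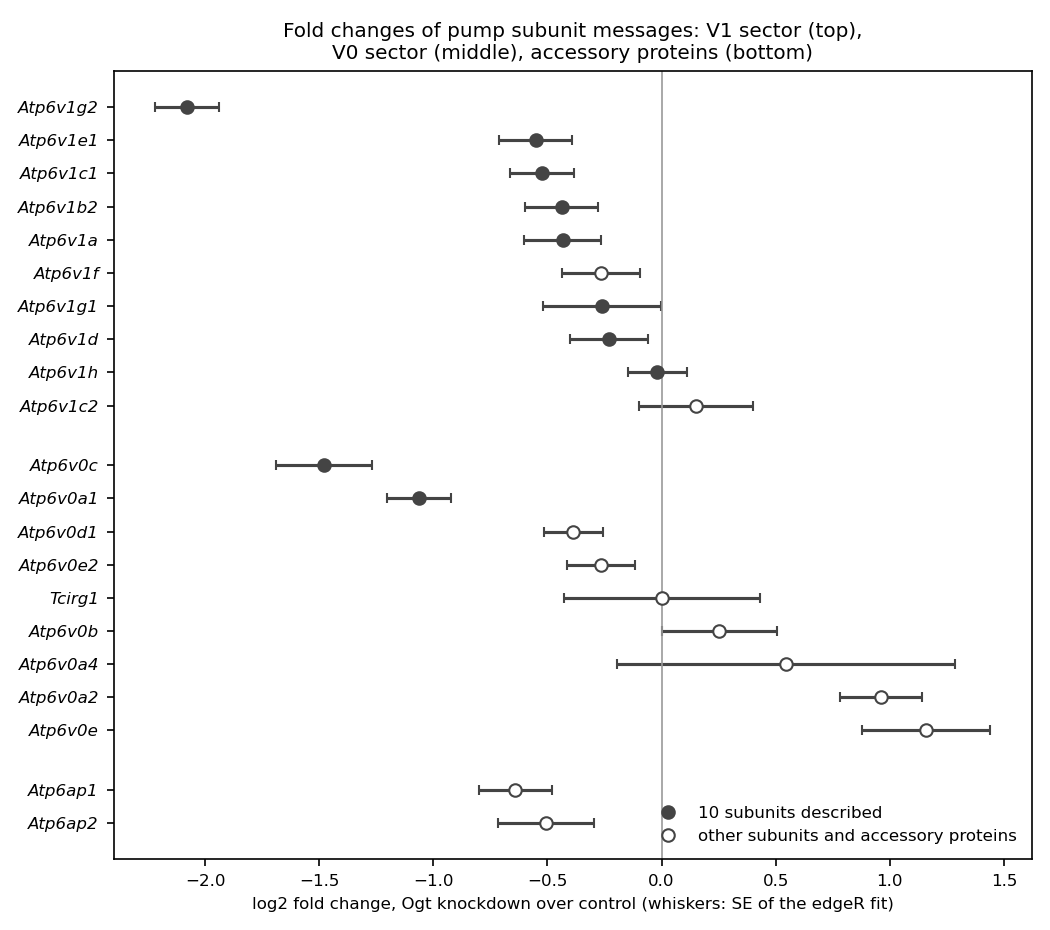
log2 fold change, Ogt knockdown over control under TMM scaling, with the SE derived from the edgeR fit, for the 10 subunits described (filled) and for the other subunits and accessory proteins that were tested (open). Atp6v1g2 (-2.08), Atp6v0c (-1.48) and Atp6v0a1 (-1.06) lie farthest below 0 and Atp6v0a2 (0.96) and Atp6v0e (1.16) farthest above; under pan-neuronal scaling only Atp6v1g2 and Atp6v0c have values below 0.

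Promoters of pump genes are known to carry the CLEAR element, an E-box that transcription factors of the TFEB family bind to switch on lysosomal genes. Promoter sequences from 250 bases before to 50 bases after the start were taken from RefSeq (GRCm38.p6) and matched 6 of the 10 subunits and 13 of the 15 other pump genes. TCACGTG, searched on both strands, was found in 1237 of 32851 promoters (3.77%), and its palindromic form TCACGTGA, which contains it, in 320 (0.974%). Coordinates of promoters are on GRCm38.p6 and those of genes on GRCm39, and the builds were not converted. The 3 subunits with the lowest log2 fold changes are shown first, each with the bases just before its first listed start. No match to TCACGTG was found in their promoters, at any of the starts listed.
Atp6v1g2 (chr17:35234890-35235009, plus strand): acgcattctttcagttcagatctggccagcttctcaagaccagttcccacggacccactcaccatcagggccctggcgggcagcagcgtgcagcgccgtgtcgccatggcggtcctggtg
Atp6v0a1 (chr11:101010278-101010397, plus strand): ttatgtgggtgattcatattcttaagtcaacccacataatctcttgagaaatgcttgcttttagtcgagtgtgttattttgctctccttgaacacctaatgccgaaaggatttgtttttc
Atp6v0c (chr17:24169679-24169798, minus strand): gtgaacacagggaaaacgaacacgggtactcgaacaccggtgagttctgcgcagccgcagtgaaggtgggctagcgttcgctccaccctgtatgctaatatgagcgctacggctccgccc

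The stretches with a match are shown next, with the match in capitals. Among the 10 subunits it was only Atp6v1a, where TCACGTGA lies 132 to 125 bases before the start. Of the other pump genes, Atp6v0e and Atp6v0d1 hold TCACGTGA at the start itself, and Atp6v0b holds the shorter form in a pair of places. The promoters of Atp6v1d and Atp6v1e1 hold no match. A match is a description of letters and not a measured binding site, and no match says only that these letters are not in this window.
Atp6v1a (chr16:44139320-44139439, minus strand): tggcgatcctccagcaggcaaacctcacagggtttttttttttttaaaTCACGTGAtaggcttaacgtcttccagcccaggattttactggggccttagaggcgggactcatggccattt
Atp6v0e (chr17:26676384-26676408, plus strand): ctttagcgcgccgaTCACGTGAgcc
Atp6v0d1 (chr8:105566057-105566176, minus strand): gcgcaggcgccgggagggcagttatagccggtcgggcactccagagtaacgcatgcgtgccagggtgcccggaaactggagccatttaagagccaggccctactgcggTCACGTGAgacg
Atp6v0b (chr4:117887330-117887449, minus strand): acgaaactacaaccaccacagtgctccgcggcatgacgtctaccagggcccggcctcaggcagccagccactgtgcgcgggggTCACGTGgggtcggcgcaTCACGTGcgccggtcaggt

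The fold changes of the 4 genes with a match (-0.43 for Atp6v1a, 1.16 for Atp6v0e, -0.39 for Atp6v0d1 and 0.25 for Atp6v0b) lay on both sides of 0, and only that of Atp6v0e passed the test among those tested. The messages of Tfeb, Tfe3 and Mitf, which encode factors that bind the CLEAR element and were named after their values were seen, did not pass. Tfeb averaged 15.1 ± 0.70 CPM in Ogt knockdown libraries and 13.4 ± 2.17 CPM in control libraries (edgeR adjusted p = 0.439).

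Genes that work around the pump were taken from 6 lists, which were also drawn up with earlier results of these data known. Of their 93 genes, all tested, 43 passed (46.2%), 33 lower (35.5%) and 10 higher (10.8%). Of all genes tested, 28.5% passed, 15.1% lower and 13.4% higher. Under pan-neuronal scaling 68 passed, 1 lower and 67 higher. That is 73.1% of the lists' genes, beside 72.7% of all genes, of which 71.9% were higher and 0.758% lower. The lower calls thus hold under TMM scaling and, but for 1 gene, not under that one. Medians are under TMM scaling unless stated. Without the libraries numbered 3, 67 passed (72.0%), 51 lower and 16 higher, where 46.8% of all genes passed.

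Transporters that spend the pump's proton gradient to fill synaptic vesicles, with the SV2 proteins of those vesicles, had the lowest median of the 6 lists, -1.30. Of 12 genes 8 fell and 0 rose; under pan-neuronal scaling 1 was lower and 1 higher. Slc18a2, the vesicular monoamine transporter that loads dopamine, averaged 49.8 ± 11.1 CPM in Ogt knockdown libraries and 198 ± 39.0 CPM in control libraries (log2 fold change -1.99, SE 0.20, edgeR adjusted p = 0.000241). Sv2a, a vesicle glycoprotein, averaged 269.5 ± 32.7 CPM in Ogt knockdown libraries and 752 ± 68.1 CPM in control libraries (log2 fold change -1.48, SE 0.14, edgeR adjusted p = 0.000184). Its relative Sv2b averaged 33.9 ± 5.98 CPM in Ogt knockdown libraries and 95.3 ± 9.54 CPM in control libraries (log2 fold change -1.49, edgeR adjusted p = 0.000255). The neuronal and glial marker sums given earlier moved with these values, and their part in the result was not tested.

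Assembly factors and regulators of the pump had 5 genes that fell, 0 that rose and 10 that did not pass, with a median of -0.29; under pan-neuronal scaling 12 passed, all higher. Without control replicate 3 the number that fell was 8, and without control replicate 6 it was 3. Oxr1, a TLDc-domain protein whose relatives act on pump assembly, averaged 96.6 ± 7.81 CPM in Ogt knockdown libraries and 255 ± 50.8 CPM in control libraries (log2 fold change -1.40, SE 0.16, edgeR adjusted p = 0.000454). Rogdi, a subunit of the rabconnectin complex that helps V1 join V0, averaged 75.9 ± 15.0 CPM in Ogt knockdown libraries and 156 ± 39.5 CPM in control libraries (log2 fold change -1.04, edgeR adjusted p = 0.00442). Tmem9, a lysosomal membrane protein that binds the pump, averaged 91.0 ± 15.0 CPM in Ogt knockdown libraries and 147 ± 6.6 CPM in control libraries (log2 fold change -0.70, edgeR adjusted p = 0.00488). The rabconnectin subunits Dmxl1, Dmxl2 and Wdr7, named after their values were seen, did not pass.

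Ion channels and exchangers of endosomes and lysosomes, which let counter-ions and protons flow against the pump, had 6 of 14 genes that fell and 0 that rose (median -0.24); under pan-neuronal scaling 10 passed, all higher. Without control replicate 5 or control replicate 6, 3 genes fell. Slc9a5, an exchanger of neurons, averaged 9.996 ± 0.735 CPM in Ogt knockdown libraries and 30.7 ± 11.2 CPM in control libraries (log2 fold change -1.62, SE 0.23, edgeR adjusted p = 0.00107). Clcn5, an endosomal chloride-proton exchanger, averaged 17.8 ± 3.36 CPM in Ogt knockdown libraries and 36.9 ± 2.27 CPM in control libraries (log2 fold change -1.05, edgeR adjusted p = 0.00123).

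The lysosomal machinery of mTORC1, the growth kinase that docks near the pump, had 4 of 20 genes that fell and 2 that rose, with a median of -0.17; under pan-neuronal scaling 18 passed, all higher. Its share that passed, 6 of 20, lies near the 28.5% of all genes. Neither of the genes that rose did so without Ogt knockdown replicate 4 or without Ogt knockdown replicate 5. Among the Rag GTPases that recruit mTORC1, Rragb averaged 56.8 ± 9.0 CPM in Ogt knockdown libraries and 154 ± 29.9 CPM in control libraries (log2 fold change -1.44, SE 0.18, edgeR adjusted p = 0.000567). Rraga averaged 121 ± 10.3 CPM in Ogt knockdown libraries and 223 ± 18.4 CPM in control libraries (log2 fold change -0.88, edgeR adjusted p = 0.000915). Rragd went the other way, at 162 ± 11.9 CPM in Ogt knockdown libraries and 103 ± 22.8 CPM in control libraries (log2 fold change 0.65, edgeR adjusted p = 0.0186; 0.0614 without Ogt knockdown replicate 4 and 0.0619 without Ogt knockdown replicate 5). Slc38a9, the arginine sensor of lysosomes, fell (-0.81, edgeR adjusted p = 0.00926), and Lamtor1, an anchor of the Ragulator complex, rose (0.42, edgeR adjusted p = 0.0358) but did not pass in 6 of the 8 fits with 1 library left out (edgeR adjusted p of 0.0603 to 0.105).

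Hydrolases and membrane proteins of the lysosome, which work in the acid the pump makes, had more genes that rose than fell: 8 of 20 rose, 3 fell and 9 did not pass, with a median of 0.31. Under pan-neuronal scaling 18 passed, all higher. Cd63, a tetraspanin of late endosomes, averaged 378 ± 144 CPM in Ogt knockdown libraries and 103 ± 22.5 CPM in control libraries (log2 fold change 1.88, SE 0.26, edgeR adjusted p = 0.000965). Lamp1, the main membrane glycoprotein of lysosomes, averaged 683 ± 80.4 CPM in Ogt knockdown libraries and 373 ± 58.1 CPM in control libraries (log2 fold change 0.87, edgeR adjusted p = 0.00279). The protease Ctsd rose as well (1.02, edgeR adjusted p = 0.00341). The sialidase Neu1 averaged 39.2 ± 2.13 CPM in Ogt knockdown libraries and 79.2 ± 9.56 CPM in control libraries (log2 fold change -1.01, edgeR adjusted p = 0.000517), and Gaa (-0.90) and Psap (-0.44) fell too. Gaa did not pass without Ogt knockdown replicate 2 (edgeR adjusted p = 0.0516), and Psap did not pass in 5 of the 8 fits with 1 library left out (edgeR adjusted p of 0.052 to 0.0987), so that 1 to 4 genes fell and 6 to 9 rose in those fits. Astrocyte and microglia marker sums were higher in Ogt knockdown libraries, as given earlier, and their part in these values was not tested.

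The mitochondrial ATP synthase, a related rotary machine that makes ATP instead of spending it, had 7 of 12 genes that fell and 0 that rose, with a median of -0.50; under pan-neuronal scaling 8 passed, all higher. Without control replicate 6 the number that fell was 4. Atp5g1, a c ring gene, averaged 239 ± 25.3 CPM in Ogt knockdown libraries and 480.2 ± 23.7 CPM in control libraries (log2 fold change -1.01, SE 0.12, edgeR adjusted p = 0.000565). The catalytic subunit Atp5b averaged 1183 ± 178 CPM in Ogt knockdown libraries and 2216 ± 154 CPM in control libraries (log2 fold change -0.91, edgeR adjusted p = 0.002), and Atp5d of the central stalk fell as well (-0.62, edgeR adjusted p = 0.0167). The median log2 fold change of these 12 genes stood close to that of the 10 V-ATPase subunits, -0.48. The difference between the lists was not tested.

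Genes outside these lists were ranked by how closely their log2 CPM profile over the 8 libraries, centred on its own mean, followed the mean profile of the 10 subunits. Among 8490 genes with a mean log2 CPM of at least 4, the 5 nearest included Ddx25, an RNA helicase (root mean square difference 0.0336 on the log2 scale), Snap91, a clathrin adaptor of nerve terminals (0.0482), Vamp2, the synaptic vesicle SNARE (0.0520), and Btbd10 (0.0525). The log2 fold changes of these 4 lay between -0.74 for Btbd10 and -0.68 for Vamp2. By the same measure the subunits themselves lay 0.122 (Atp6v1c1) to 0.702 (Atp6v1g2) from their own mean. The nearest genes were picked from 8490 for their small distance, so nothing is read from their lying closer than any one subunit. The ranking is a description over 8 libraries that share 2 genotypes.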

How the data were processed

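Raw counts per gene were deposited by the authors as a single table that covers all 8 libraries. Per the file headers, featureCounts 2.0.3 counted reads over the exons of GENCODE vM30, and its command sets nothing about strand, pairs or multiply aligned reads. Counting was thus without strand. The submitters' processing notes list FastQC, Trimmomatic, STAR and mm10. That build does not match GENCODE vM30, an annotation of GRCm39, and which was used is unresolved; gene coordinates are those of the table.

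Symbols came from GENCODE M21 by gene ID, which matched 52073 of 56691 IDs and left 4618 without one. The filter filterByExpr left 19912 genes. TMM-scaled counts went into the two-sided quasi-likelihood test of edgeR 4.0.16 (robust glmQLFit, glmQLFTest) under R 4.3.3, with Benjamini-Hochberg adjustment over all genes tested and a threshold of 0.05. Ratios used counts per exon length with a pseudocount of 0.5 reads. The detection floor of 3 reads was 0.0212 to 0.0626 CPM per library, for counting error only. Libraries of 1 group differed by a chi-square of 25 to 463 per degree of freedom, more than repeat sequencing of 1 library gives. This check cannot exclude separate preparations of the same RNA. The fit was tested on simulated data.

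The members, the lists and the rule for named genes were chosen with earlier results of these data known. The rule names the 10 subunits, the 15 other pump genes, from each further list the genes of smallest p past the threshold (up to 3 each way), the 5 nearest profiles and Ogt; of the genes it names, 2 are not reported here. Of the marker lists, the exception to the dopamine neuron count and the genes of the astrocyte count are named too. The pan-neuronal markers that did not fall are not named. Alternatives were RLE, upper quartile and pan-neuronal scaling, no filter on low counts, a stricter one (4 or more libraries with 1 CPM or more), sample-weighted limma-voom (limma 3.58.1), DESeq2 1.42.0, a replicate block, another pseudocount and leaving out libraries.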

Additional observations from a re-analysis of the deposited data

Results flagged for a closer look

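Within groups of 4 libraries, 7 of 42 sets of values had 1 library far from the other 3, by a gap that chance gives in about 1 of 20 groups. Among the 10 subunits, Atp6v1g1 had 236.7 CPM in Ogt knockdown replicate 3, where the others of its group had 110.8 to 128.8. Atp6v0a1 reached 475.1 CPM in control replicate 3, where the rest of the control group had 341.7 to 348.7. Atp6v0c reached 817.3 CPM in control replicate 6, against 731.6 to 737.5 in the rest. Of the other pump genes, Atp6v0b had 505.2 CPM in Ogt knockdown replicate 3, against 236.6 to 276.9 in the rest of its group. Atp6v0a4 had 0.07072 CPM in Ogt knockdown replicate 5, against 0.5405 to 0.6154 in the rest. In control replicate 3, Tcirg1 had 39.99 CPM where the other control libraries had 10.62 to 11.07, and Atp6v0d1 had 408.9 CPM where they had 332.9 to 337.9. Control replicate 3 accounts for 3 of the 7 and Ogt knockdown replicate 3 for 2.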

How the results depend on the processing

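The number of the 10 subunits past the threshold was 5 with all libraries and TMM scaling, 3 with upper quartile scaling, 8 with pan-neuronal scaling (1 lower, 7 higher), 9 with limma-voom, 3 with a replicate block, 9 without the libraries numbered 3, and 3 to 8 when 1 library was left out. The shares of all genes past it in these fits were 28.5%, 28.2%, 72.7%, 51.3%, 6.32%, 46.8% and 18.8% to 34.9%. For the other pump genes the number was 3, and 10 with pan-neuronal scaling, 8 with limma-voom, 1 with a replicate block, 8 without the libraries numbered 3 and 3 to 6 with 1 library left out. For the 6 further lists it was 43, and 68, 17 and 67 with pan-neuronal scaling, a replicate block and without the libraries numbered 3, and 31 to 51 with 1 library left out. Libraries with the shared replicate numbers 3, 4 and 5 had correlations of their deviations of 0.1, 0.1 and 0.04. For Ogt knockdown replicates 3 and 4 the control library of the same number correlated most. Ogt knockdown replicate 5 correlated most with control replicate 6 (0.08). Correlations this weak cannot decide whether the numbers pair the libraries. Fewer libraries are usable in the block fit, since the numbers 2 and 6 occur in 1 group each. Pan-neuronal scaling turned the log2 fold change of 8 of the 10 subunits above 0, to 0.77 for Atp6v1a, 0.77 for Atp6v1b2, 0.68 for Atp6v1c1, 0.98 for Atp6v1d, 0.65 for Atp6v1e1, 0.96 for Atp6v1g1, 1.19 for Atp6v1h and 0.13 for Atp6v0a1, and of other pump genes to 0.94 for Atp6v1f, 0.81 for Atp6v0d1, 0.94 for Atp6v0e2, 0.56 for Atp6ap1 and 0.71 for Atp6ap2. That of Tcirg1 turned to -0.02 with no filter and ranged from -0.19 to 0.74 with 1 library left out (-0.10, -0.01, -0.19, -0.18 and -0.19 without Ogt knockdown replicates 2 and 3 and control replicates 4, 5 and 6). That of Atp6v0b ranged from -0.05 to 0.43. With 1 library left out, the difference in log2 ratio of Atp6v0e2 to Atp6v0e ranged from -1.70 to -1.23. For Tcirg1 to Atp6v0a2 it ranged from -0.96 to -0.09, and for Atp6v1g2 to Atp6v1g1 from -1.90 to -1.46. For Atp6v0a1 to Atp6v0a2 it ranged from -2.15 to -1.76. A pseudocount of 5 reads left all 4 directions as they were. No ratio was computed without both libraries numbered 3. Among the 10 subunits, Atp6v1c1 and Atp6v1e1 were no longer past the threshold with upper quartile scaling, with a replicate block and without Ogt knockdown replicate 4 or control replicate 5 or 6, nor was Atp6v1c1 without Ogt knockdown replicate 2 or control replicate 4, nor Atp6v0a1 and Atp6v0c with pan-neuronal scaling. Newly past it were Atp6v1a, Atp6v1b2, Atp6v1d and Atp6v1g1 with limma-voom and without the libraries numbered 3, the last 3 of them without Ogt knockdown replicate 3, Atp6v1a without control replicate 3 Atp6v1b2 with DESeq2 and, now higher, those 4 and Atp6v1h with pan-neuronal scaling. Atp6v1h lay at 0.00 to 0.08 in 6 fits beside pan-neuronal scaling. Of the other pump genes, Atp6v0e (1.40) and Atp6ap1 (-0.55) no longer passed with a replicate block, and 7 genes newly passed in the same direction in at least 1 fit (19 values). For single lists among the 6, 24 of the counts lay more than 1.5 times away and 78 did not. With a replicate block Tmem9, Rragd, Lamtor1, Slc38a9, Lamp1, Gaa, Psap, Atp5b and Atp5d did not pass. Of the markers 3 dopamine neuron genes fell, and 1 astrocyte, 0 oligodendrocyte and 5 microglia genes rose, where 3.91% of all genes fell and 2.41% rose. Apart from the scaling on pan-neuronal messages itself, the cause of these changes was not tested. Copies of Atp6v0c and Atp6v1g1, antisense overlaps and the unresolved genome build limit single values.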
